A study of Vitis vinifera with 24 samples.

Results

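The B-class floral MADS-box genes of grapevine (Vitis vinifera) were followed through anther culture and somatic embryogenesis. In somatic embryogenesis, embryos arise in culture from cells other than a fertilized egg. The members were the 3 loci VIT_18s0001g01760 (PISTILLATA), VIT_18s0001g13460 (APETALA3, written AP3) and VIT_04s0023g02820 (TM6), taken by identifier out of 29971 loci in the deposited table. Their identity rests on published locus numbers. The table pairs no identifier with a name. A RefSeq gene table lists a gene under each of the 3 names, PISTILLATA as a synonym of MADS9, on chromosomes 18, 18 and 4. These are the chromosomes written in the identifiers.

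Each of 8 groups had 3 RNA-seq libraries, made from 2 cultivars and 4 tissues without keeping the strand. The cultivars were Cabernet Sauvignon (CS), labelled poorly competent for embryogenesis, and Sangiovese (SG), labelled highly competent. The tissues were anthers from immature flowers, undifferentiated callus at day 40 of culture (40D), and non-embryogenic (NEC) and embryogenic callus (EC), which were told apart by eye under a stereomicroscope at month 4. All callus grew from anthers cultured without light, first with 2,4-D (an auxin) and BAP (a cytokinin) in the medium. Before the month 4 sampling, calli spent 1 month on a medium with the auxins NOA and IAA, BAP and activated charcoal. No genotype was altered. Values are FPKM, fragments per kilobase of transcript and scaled to the number of mapped fragments, so levels can be set side by side between genes.

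B-class MADS-box proteins are transcription factors that, in the ABC model of the flower, specify petals together with A-class genes and stamens together with the C-class gene AGAMOUS. In Arabidopsis and Antirrhinum a PISTILLATA-type and an AP3-type protein bind DNA as an obligate pair, joined by SEPALLATA proteins in larger complexes. The AP3 type split early in the core eudicots into the euAP3 lineage, to which AP3 belongs, and the TM6 lineage, which Arabidopsis has lost and which in petunia and tomato acts mainly in stamens. The anther is the pollen-bearing part of the stamen, so the cultured tissue was one in which these genes normally act.

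The libraries differed in ways that touch the results. Column sums ran from 729402 to 938765 FPKM. The number of reads is unknown, and the relative depth estimated from values under 0.15 FPKM ran from 0.896 to 1.50 times that of the first CS anther library. The 3 libraries of each 40D group were the most alike, with a median coefficient of variation of 3.44% in CS and 2.91% in SG over loci at a mean of 10 FPKM or more, against 4.06% to 9.86% in the other groups. In anthers and EC, replicate 3 lay between the other two at 62.9% to 74.5% of these loci, against 31.0% to 40.5% in 40D and NEC. Whether all 3 libraries are independent was not tested, so SDs and p-values of these groups measure only the spread between the libraries deposited. Within SG EC, replicate 1 was the most like NEC and replicate 2 the least, with correlations across loci to the SG NEC mean of 0.774, 0.692 and 0.733 in replicates 1 to 3. The tissue labels were not checked against markers here.

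PISTILLATA, the partner of both AP3-type proteins in the pair model, was the most abundant member in anthers. In CS anthers it stood at 1039, 881 and 935 FPKM in replicates 1 to 3, and in SG anthers at 715, 848 and 793. In CS 40D callus it stood at 1056, 1062 and 1079 FPKM, and in SG 40D callus at 368, 345 and 366. Callus at day 40 was thus slightly above the anther level in CS and below it in SG, and in neither cultivar did the libraries of these tissues overlap. How many of all tested loci had libraries without overlap was not counted. A lack of overlap, here and below, therefore only describes these genes and does not set them apart from other loci. In the 4 groups of anthers and 40D, PISTILLATA was above at least 98.5% of the 21568 loci tested. In NEC it had dropped to 9.68, 17.2 and 15.4 FPKM in CS and to 17.0, 27.5 and 15.9 in SG. In EC the cultivars separated, with 46.5, 9.91 and 32.2 FPKM in CS and 2.14, 0.740 and 1.14 in SG. The CS EC libraries spread widely and overlapped CS NEC, while each SG EC library lay under every other library of the series.

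The order of PISTILLATA means, with SD over 3 libraries, was CS 40D (1066 ± 11.8 FPKM), CS anthers (952 ± 80.3), SG anthers (785 ± 66.7), SG 40D (359.7 ± 13.0), CS EC (29.5 ± 18.4), SG NEC (20.1 ± 6.39), CS NEC (14.1 ± 3.95) and SG EC (1.34 ± 0.722). Of the 7 neighbouring pairs in this order, 3 differed by limma: SG anthers from SG 40D, SG 40D from CS EC, and CS NEC from SG EC. The other 4 pairs missed the threshold, with adjusted p from 0.28 to 0.69, although CS 40D, CS anthers and SG anthers did not overlap one another as neighbours.

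AP3, the euAP3-type partner, was the least abundant member per length in anthers, 40D and NEC. It stood at 47.9, 48.3 and 51.6 FPKM in CS anthers and at 65.5, 46.6 and 60.0 in SG anthers. In 40D callus the values were 43.6, 41.8 and 41.1 FPKM in CS and 32.0, 32.9 and 33.3 in SG. Within each cultivar every 40D library was under every anther library. In NEC, AP3 was at 2.84, 2.67 and 3.06 FPKM in CS and at 5.18, 4.92 and 5.22 in SG. The EC libraries gave 1.50, 0.470 and 1.63 FPKM in CS and 0.983, 0 and 0.446 in SG. In SG EC replicate 2 AP3 was listed at 0, and such a 0 need not mean absence, since 130 loci combined a 0 with 10 FPKM or more among the libraries of a single group.

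AP3 means ran from SG anthers (57.4 ± 9.73 FPKM) through CS anthers (49.3 ± 2.05), CS 40D (42.2 ± 1.31), SG 40D (32.8 ± 0.681), SG NEC (5.10 ± 0.161), CS NEC (2.86 ± 0.198) and CS EC (1.20 ± 0.635) to SG EC (a mean of 0.476 with the listed 0 taken as a value). Among the first 4 groups no neighbouring pair passed, with limma adjusted p from 0.14 to 0.45, and the 4 pairs below them did. The lowest pair, CS EC and SG EC, overlapped in their libraries.

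TM6, the other AP3-type member, kept a high level in non-embryogenic callus. In anthers it stood at 343, 301 and 317 FPKM in CS and at 372, 361 and 402 in SG. At day 40 it was at 753, 756 and 774 FPKM in CS and at 596, 625 and 606 in SG, above all anther libraries. In NEC it was at 275, 278 and 258 FPKM in CS and at 270.4, 299 and 266 in SG, below the anthers of the same cultivar by a small margin and still above at least 97.9% of tested loci. In EC it was at 9.42, 3.72 and 7.73 FPKM in CS and at 19.6, 0.546 and 6.93 in SG. Every EC library was far below every NEC library. Over the SG EC libraries TM6, like PISTILLATA and AP3, followed the order of their likeness to NEC given above. The part of that likeness in the values of these genes was not tested.

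The TM6 order was CS 40D (761 ± 11.2 FPKM), SG 40D (609 ± 14.9), SG anthers (378 ± 21.4), CS anthers (320.4 ± 21.1), SG NEC (279 ± 17.8), CS NEC (270.1 ± 11.0), SG EC (9.04 ± 9.72) and CS EC (6.96 ± 2.92). Of the 7 neighbouring pairs 1 differed by limma, CS NEC from SG EC. The fit uses 1 spread per locus over all groups, and the SG EC libraries stood far apart. The standard error of a TM6 difference was therefore 0.54 on the log2 scale, against 0.36 for PISTILLATA and 0.20 for AP3, although 5 of the 7 neighbouring pairs did not overlap.

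**Figure D1:**
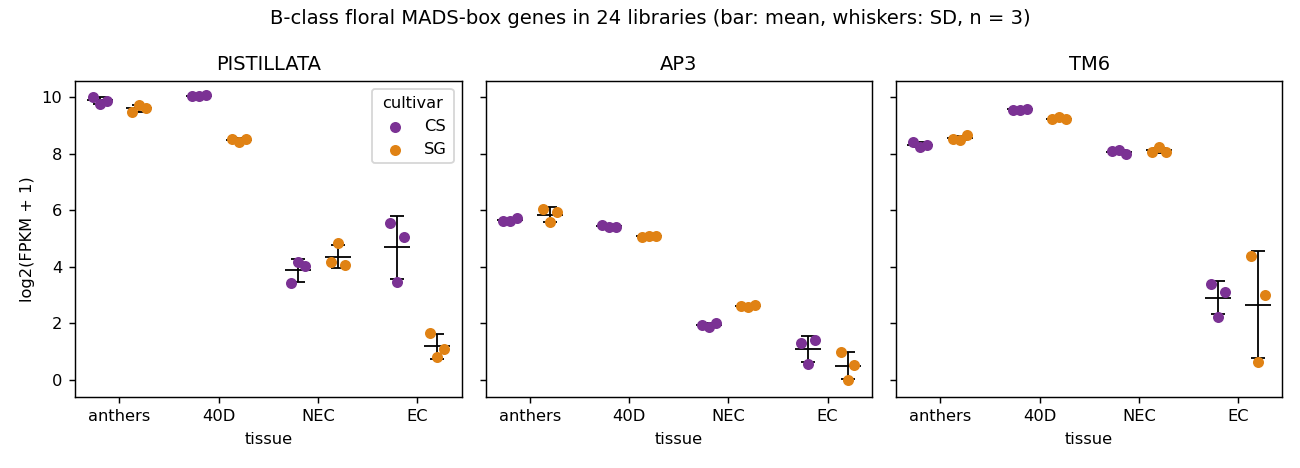
Levels of the 3 genes as log2(FPKM + 1) by tissue in CS and SG, with points for libraries, bars for means and whiskers for the SD (n = 3). PISTILLATA and AP3 are low in both month 4 calli, whereas TM6 is low in EC and stays at 258 to 299 FPKM in NEC.

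The make-up of the B class changed between tissues. The summed level of the 3 genes in CS was 1321 ± 101 FPKM (SD, n = 3) for anthers, 1869 ± 21.9 for 40D, 287 ± 10.9 for NEC and 37.7 ± 21.9 for EC. The SG sums were 1221 ± 59.5 FPKM for anthers, 1001 ± 4.85 for 40D, 304 ± 24.0 for NEC and 10.9 ± 10.9 for EC. PISTILLATA made up 72.0% ± 0.577 of the sum in CS anthers and 64.3% ± 2.89 in SG anthers. By day 40 its share was 57.0% ± 0.0726 in CS and 35.9% ± 1.37 in SG, where TM6 had become the larger part. In NEC TM6 supplied 94.1% ± 1.35 of the sum in CS and 91.8% ± 1.34 in SG. CS EC was again mostly PISTILLATA, at 76.2% ± 5.46. In SG EC the share of PISTILLATA was 9.41%, 57.5% and 13.4% in replicates 1 to 3, and the second of these rests on a sum of 1.29 FPKM. AP3 was at most 5.68% of the sum in any library.

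**Figure D2:**
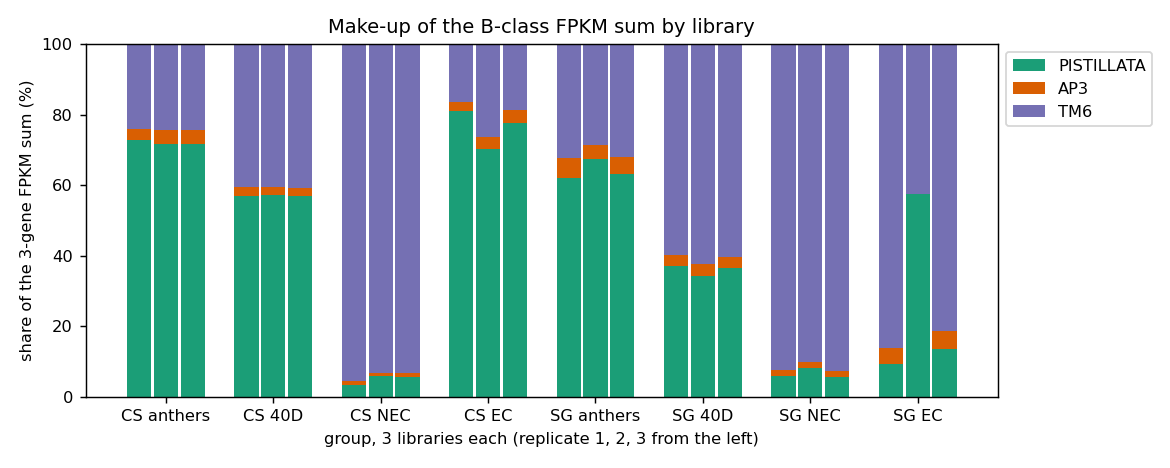
Share of each gene in the B-class FPKM sum, in percent, for each library. TM6 takes over 90% of each NEC library, while PISTILLATA takes 70.3% to 81.0% of the CS EC libraries.

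A ratio of genes within a library does not depend on how the library was scaled. The TM6 to AP3 ratio of FPKM was 6.13 to 7.16 in CS anthers and 5.68 to 7.75 in SG anthers. At day 40 it was 17.3 to 18.8 in CS and 18.2 to 19.0 in SG, close to each other in both cultivars. NEC had the highest ratios, 84.1 to 104 in CS and 51.1 to 60.8 in SG. In EC it was 4.73 to 7.92 in CS, a range that overlaps that of CS anthers, and 20.0 and 15.5 in SG EC replicates 1 and 3. SG EC replicate 2 has no such ratio, since its AP3 was listed at 0, with TM6 at 0.546 FPKM.

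From anthers to 40D callus the TM6 to AP3 ratio rose 2.78-fold in CS and 2.79-fold in SG, with an exact permutation p of 0.10 in each. From 40D to NEC it was 5.24-fold higher in CS and 2.93-fold higher in SG, again with an exact permutation p of 0.10, in a comparison added after the data were examined. In CS EC it was 15.3-fold lower than in CS NEC, with an exact permutation p of 0.10. In SG EC it was 3.10-fold lower than in SG NEC over 2 and 3 libraries, with an exact permutation p of 0.20. The libraries that have a ratio did not overlap in any of these. For SG EC this leaves out replicate 2, and on which side of NEC it would lie cannot be told from an AP3 listed at 0. The p-values are the smallest that 3 against 3 and 2 against 3 libraries can give in a two-sided test, so none can pass 0.05.

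The AP3 to PISTILLATA ratio tells how far the partners moved together. It was 0.0461 to 0.0552 in CS anthers and 0.0381 to 0.0413 in CS 40D callus, a 1.31-fold fall without overlap (exact permutation p of 0.10). In SG anthers it was 0.0550 to 0.0916 and in SG 40D callus 0.0869 to 0.0956, which overlap (exact permutation p of 0.30). In NEC it was 0.155 to 0.293 in CS and 0.179 to 0.328 in SG. PISTILLATA had thus lost more of its level than AP3 by the NEC stage, and the ratio was 5.26-fold higher than at day 40 in CS and 2.87-fold higher in SG (exact permutation p of 0.10 in each, added after the data were examined). In CS EC the ratio was 4.88-fold lower than in NEC, at 0.0322 to 0.0507 (exact permutation p of 0.10). In SG EC it was 0.459 and 0.390 in replicates 1 and 3, 1.62-fold higher than in NEC (exact permutation p of 0.20 over 2 and 3 libraries). Taken as a value, the listed 0 of AP3 would put SG EC replicate 2 at a ratio of 0, below every SG NEC library. With 1 FPKM added to both genes, which keeps this library, the mean ratio stayed higher in SG EC. Adding 1 draws ratios of low values toward 1, so the direction in SG depends on how the 0 is treated.

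**Figure D3:**
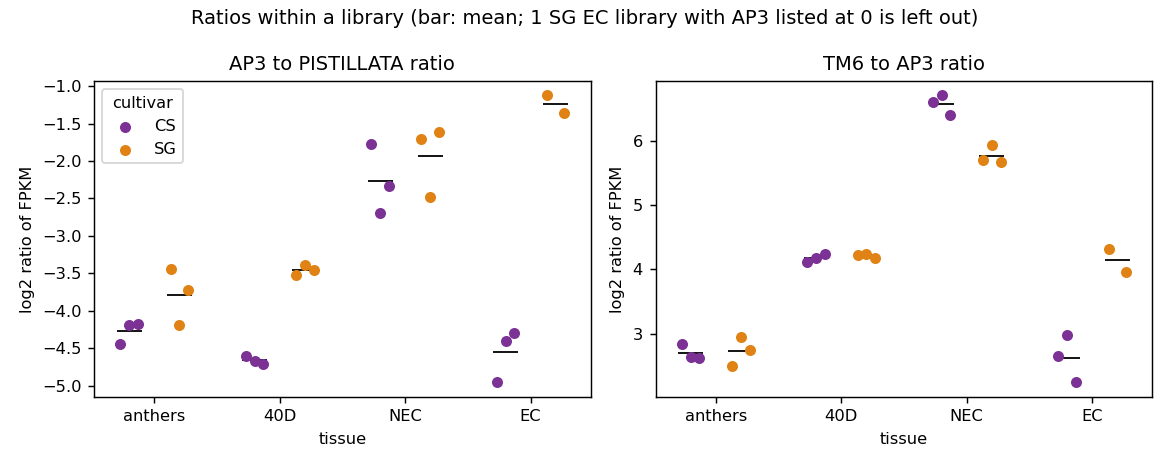
Log2 ratios of FPKM within each library by tissue and cultivar, with bars for means. The TM6 to AP3 ratio peaks in NEC, and the AP3 to PISTILLATA ratio is lowest in CS 40D and CS EC.

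The tests below come from limma on log2(FPKM + 1) over all 21568 loci tested, all of which had 1 FPKM or more in at least 3 libraries, as the 3 members did. A gene rose or fell where its Benjamini-Hochberg adjusted p was under 0.05. Changes are log2 differences on the FPKM + 1 scale, given with their standard error, and they understate the change of genes near 0, such as AP3 in EC. Most loci passed in most comparisons. The level at which libraries are set equal matters to these shares: median-of-ratios scaling moved the median change of all loci by more than 0.1 in several comparisons, for example from 0.32 to 0.026 for EC against 40D in CS. In a bulk library, fewer cells with a transcript and less transcript per cell cannot be told apart.

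The step from anthers to 40D callus is that of callus formation. In CS, 1 of 3 members rose and 0 fell, while 35.6% of all tested loci were called higher and 43% lower. TM6 was the one that rose, 2.38-fold in FPKM and by 1.25 ± 0.54 on the log2 scale (adjusted p of 0.040). This call is a narrow one: it was lost on leaving out any 1 of the 6 libraries, with adjusted p from 0.064 to 0.084. PISTILLATA differed by 0.17, with a 95% interval from -0.59 to 0.92, and AP3 by -0.22, with an interval from -0.64 to 0.20. When all libraries were scaled to equal sums, PISTILLATA turned to -0.12, and AP3 was called lower at -0.50 (adjusted p of 0.034). In SG, 2 of 3 fell and 0 rose, against 39.9% of loci lower and 36.8% higher, or 48.6% and 28.8% with equal sums. PISTILLATA fell 2.18-fold in FPKM, with a log2 change of -1.12 (SE 0.36, adjusted p of 0.0084), and AP3 fell 1.75-fold, with a log2 change of -0.78 (SE 0.20, adjusted p of 0.0017). The PISTILLATA call was lost with each 40D group as 1 sample (adjusted p of 0.10), and that of AP3 with a pseudocount of 0.1 (adjusted p of 0.19). TM6 in SG was 1.61-fold higher without overlap but was not called, at 0.69 ± 0.54 with an adjusted p of 0.25. In a fit of these 2 groups alone, this TM6 difference had an adjusted p of 0.00026.

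From 40D to non-embryogenic callus, PISTILLATA and AP3 fell steeply in both cultivars and TM6 by much less. In CS all 3 fell, against 31.2% of loci lower and 32% higher. PISTILLATA fell 75.5-fold in FPKM, with a log2 change of -6.18 (SE 0.36, adjusted p of 2.9e-11). AP3 fell 14.8-fold, with a log2 change of -3.49 (SE 0.20, adjusted p of 2.4e-11), and TM6 2.82-fold, with a log2 change of -1.49 (SE 0.54, adjusted p of 0.021). In SG 2 of 3 fell, against 21.8% of loci lower and 25.7% higher, or 17.7% and 32.7% with equal sums. PISTILLATA fell 17.9-fold, with a log2 change of -4.13 (SE 0.36, adjusted p of 3.2e-08), and AP3 6.42-fold, with a log2 change of -2.47 (SE 0.20, adjusted p of 1.4e-08). TM6 was 2.19-fold lower in SG without overlap and missed the threshold, at -1.13 ± 0.54 with an adjusted p of 0.093, while the 2 groups alone gave an adjusted p of 9.7e-06. With each 40D group counted as 1 sample, the TM6 call in CS was lost, at an adjusted p of 0.17, as it was with a pseudocount of 0.1, at 0.073.

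From 40D to embryogenic callus all 3 genes fell in both cultivars, against 26.5% of loci lower and 52% higher in CS, and 29.7% lower and 47.4% higher in SG. Median-of-ratios scaling made the CS shares 36.7% and 39.6% and the SG shares 36.9% and 38.4%. In CS, PISTILLATA fell 36.1-fold in FPKM, AP3 35.2-fold and TM6 109-fold, with log2 changes of -5.37, -4.34 and -6.66. In SG, PISTILLATA fell 268-fold, AP3 68.8-fold and TM6 67.4-fold, with log2 changes of -7.31, -4.57 and -6.59. The AP3 mean behind this fold includes the listed 0, and the TM6 change was -7.44 without SG EC replicate 1 and -5.57 without SG EC replicate 2. The highest adjusted p of these 6 was 1.2e-09. The libraries did not overlap for any of them.

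The main comparison of the design set EC against NEC of the same cultivar. TM6 was the member with the largest change in each. It also had the most to lose, with NEC means of 270.1 FPKM in CS and 279 in SG. PISTILLATA had 14.1 and 20.1 FPKM there, and AP3 less, so the sizes of these changes cannot be set side by side. In CS TM6 fell 38.8-fold in FPKM, with a log2 change of -5.17 (SE 0.54, adjusted p of 3.5e-08), and in SG 30.8-fold, with a log2 change of -5.46 (SE 0.54, adjusted p of 1.6e-08). The SG value moved with single libraries, to -4.45 without SG EC replicate 2 and to -6.32 without SG EC replicate 1. Without SG EC replicate 1 and SG NEC replicate 2 together, the libraries most like the other callus type, it was -6.27. AP3 fell 2.38-fold in CS, with a log2 change of -0.86 (SE 0.20, adjusted p of 0.00068), and 10.7-fold in SG, with a log2 change of -2.10 (SE 0.20, adjusted p of 1.1e-08), from levels of 2.86 and 5.10 FPKM in NEC. In all, 2 of 3 fell and 1 rose in CS, against 27.9% of loci lower and 51.4% higher, or 38.6% and 38.7% after median-of-ratios scaling. In SG 3 of 3 fell, against 32.2% lower and 46.1% higher.

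The PISTILLATA change had opposite signs in the cultivars, and only that in SG was firm. In SG it fell 15.0-fold, with a log2 change of -3.18 (SE 0.36, adjusted p of 1.3e-07), without overlap. In CS it was 2.09-fold higher in EC, at 0.81 ± 0.36 with an adjusted p of 0.047, and the libraries overlapped. That rise in CS does not stand firmly: it was lost under several alternatives, with adjusted p of 0.30 after median-of-ratios scaling, 0.22 with the 2 groups alone and 0.33 without CS EC replicate 1. Median-of-ratios scaling moved the median of all loci in this comparison from 0.31 to 0 and the PISTILLATA value to 0.40.

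An interaction term compared this EC to NEC change of each gene between CS and SG. For PISTILLATA the difference was lower in SG, with an interaction of -3.98 on the log2 scale (SE 0.51, adjusted p of 4.7e-06), and it stayed between -4.60 and -3.54 when any 1 of the 12 libraries was left out. For AP3 the difference was lower in SG, with an interaction of -1.25 (SE 0.28, adjusted p of 0.0014). Thus 2 of 3 members had a lower difference in SG, as did 31.8% of all loci, while 15.2% had a higher one; median-of-ratios scaling made these 20% and 22.8%. For TM6 the value was -0.30, with a 95% interval from -1.89 to 1.29 (adjusted p of 0.78), and it turned to 0.72 without SG EC replicate 2. For 40D against anthers, the interaction was -1.29 for PISTILLATA (SE 0.51, adjusted p of 0.043), where 21.3% of loci were lower and 28.3% higher in this term. Leaving out any 1 of the 12 libraries ended that call, with adjusted p from 0.050 to 0.077. AP3 was at -0.56 and TM6 at -0.56 there, with adjusted p of 0.11 and 0.57.

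Set against anthers, the tissue put in culture, NEC had little PISTILLATA and AP3 left and most of its TM6. PISTILLATA was 67.4-fold lower in CS NEC and 39.0-fold lower in SG NEC, and AP3 17.3-fold and 11.2-fold lower, with adjusted p of at most 7.8e-11 for PISTILLATA and 1.7e-11 for AP3. TM6 was at -0.24 in CS, with a 95% interval from -1.37 to 0.88, and at -0.44 in SG, with an interval from -1.56 to 0.68. TM6 in NEC was 1.19-fold below anthers in CS and 1.36-fold in SG without overlap, and with the 2 groups alone in the fit the adjusted p was 0.017 in CS and 0.0031 in SG. So 2 of 3 members fell in each cultivar, against 43.7% of loci lower and 34.9% higher in CS, and 39.7% lower and 37.8% higher in SG. EC lay below anthers for all 3 genes in both cultivars, against 33% of loci lower and 47.6% higher in CS, and 35.4% lower and 44.2% higher in SG. These falls were 32.2-fold and 585-fold for PISTILLATA in CS and SG, 41.1-fold and 120-fold for AP3, and 46.1-fold and 41.9-fold for TM6, with adjusted p of at most 1.6e-08. The TM6 log2 change in SG was -6.76 without SG EC replicate 1 and -4.89 without SG EC replicate 2. All of these comparisons with anthers share the anther libraries with those of 40D.

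**Figure D4:**
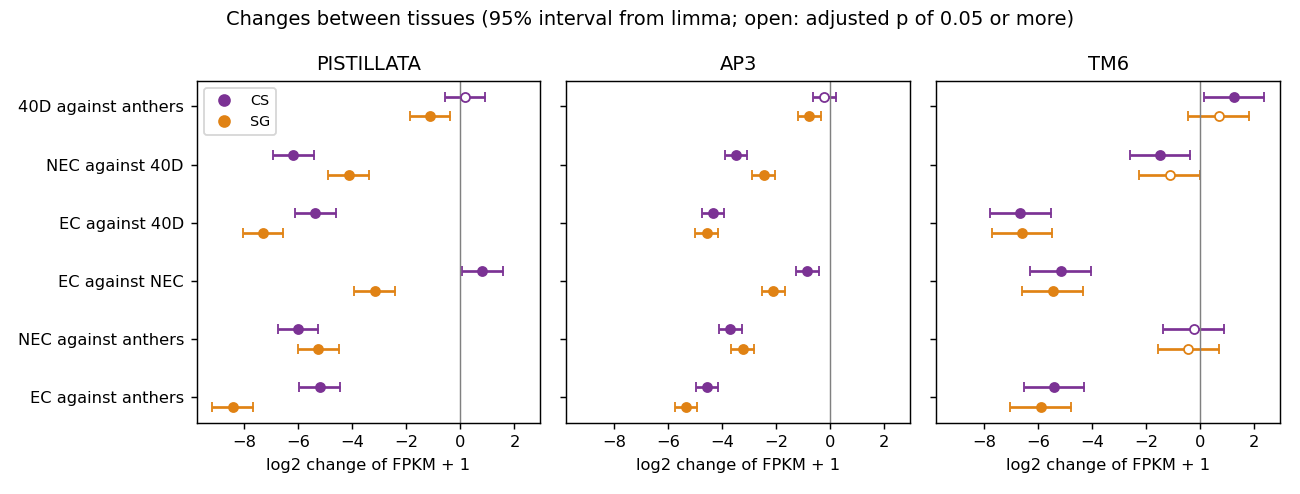
Log2 changes between tissues for each gene in CS and SG, with 95% intervals from limma. Filled points passed an adjusted p of 0.05. TM6 in NEC against anthers spans 0 in both cultivars, and PISTILLATA in EC against NEC has opposite signs, 0.81 in CS and -3.18 in SG. The CS call was lost under several alternatives.

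Between the cultivars, anthers gave 0 of 3 members called by limma in the fit of all groups, against 43.5% of loci in either direction, and 0 had an unadjusted p under 0.05. The SG minus CS values were -0.28 for PISTILLATA (95% interval from -1.03 to 0.48), 0.20 for AP3 (-0.22 to 0.62) and 0.24 for TM6 (-0.88 to 1.36). PISTILLATA and TM6 libraries of the cultivars did not overlap in anthers, and how many of all loci did the same was not counted. At day 40, PISTILLATA was 2.96-fold lower in SG, with a log2 change of -1.56 (SE 0.36, adjusted p of 0.0011), and 1 of 3 members was called lower, as were 26.1% of loci, with 30.8% higher. Counting each 40D group as 1 sample gave an adjusted p of 0.12. AP3 and TM6 were also lower in SG 40D without overlap, 1.29-fold and 1.25-fold in FPKM, and were not called, with adjusted p of 0.14 and 0.64. In NEC, AP3 was 1.79-fold higher in SG, at 0.66 ± 0.20 (adjusted p of 0.0090), and 1 of 3 members was called higher, as were 31.7% of loci, with 21.7% lower (25% and 27.2% after median-of-ratios scaling). With a pseudocount of 0.1 that call was lost, at an adjusted p of 0.22.

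In EC, 2 of 3 members were lower in SG, as were 32.1% of loci, with 19.3% higher (25.3% and 24.8% after median-of-ratios scaling). PISTILLATA was 22.0-fold lower in FPKM, with a log2 change of -3.51 (SE 0.36, adjusted p of 2.0e-07), with no overlap between 9.91 to 46.5 FPKM in CS and 0.740 to 2.14 in SG. AP3 was 2.52-fold lower, with a log2 change of -0.58 (SE 0.20, adjusted p of 0.021), but both cultivars were near or under 1 FPKM and overlapped. Its call was lost without CS EC replicate 1, CS EC replicate 3 or SG EC replicate 2, with adjusted p of 0.095, 0.12 and 0.16. TM6 was at -0.25 on the log2 scale with an adjusted p of 0.73, while its mean FPKM was 1.30-fold higher in SG. Its direction thus differed between the scales, and also with single libraries: without SG EC replicate 1 it was lower in SG, at -1.11 (adjusted p of 0.032), and without SG EC replicate 2 it was higher by 0.76 (adjusted p of 0.040).

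The B class works with the other floral organ MADS-box genes, and 9 such loci were taken by published locus numbers: 3 of the AGAMOUS/SEEDSTICK class, which act in stamens, carpels and ovules, 3 of the SEPALLATA class, the shared partners of floral complexes, and 3 of the APETALA1/FRUITFULL class, which mark floral meristems and fruit. In EC against NEC, 5 of the 9 fell, 0 rose and 4 were not called in each cultivar, with a median log2 change of -3.44 in CS and -0.80 in SG, against 0.31 and 0.15 over all loci. The 4 not called in CS had means of 0.260 FPKM or less in both calli. Those not called in SG were at 0.165 FPKM or less in both, apart from VIT_14s0083g01050. Such loci had almost no level to lose, and they count in the medians. Of all loci 27.9% were lower in CS and 32.2% in SG, or 38.6% and 37.6% after median-of-ratios scaling. All 3 loci of the AGAMOUS/SEEDSTICK class fell in both cultivars. VIT_10s0003g02070 of that class stood at 153 ± 13.2 FPKM in CS NEC against 9.21 ± 3.11 in CS EC, and at 138 ± 3.82 in SG NEC against 8.94 ± 2.68 in SG EC. Of the SEPALLATA class, VIT_01s0010g03900 fell from 259.8 ± 20.0 FPKM to 2.46 ± 0.324 in the CS calli, and from 225 ± 19.7 to 7.73 ± 8.40 in those of SG. VIT_14s0083g01050 of the same class fell in CS and in SG was at 51.7 ± 0.776 FPKM in NEC against 55.3 ± 5.82 in EC.

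The APETALA1/FRUITFULL class was low throughout, at 7.81 FPKM or less in every group mean. VIT_14s0083g01030 went from 7.81 ± 1.18 FPKM in CS anthers to 0.429 ± 0.171 in CS 40D, and from 6.15 ± 0.801 to 1.13 ± 0.0254 in SG. From 40D to NEC, CS had 6 of the 9 loci lower and 1 higher, and SG had 4 lower and 1 higher, beside 31.2% and 21.8% of all loci lower. Their median change was -0.51 in CS and -0.33 in SG, against 0.0068 and 0.029 over all loci and -6.18 and -4.13 for PISTILLATA. The CS median is that of VIT_14s0083g01030, which had only 0.429 FPKM to lose and was listed at 0 in CS NEC. In CS 40D, VIT_01s0011g00100 and VIT_17s0000g05000 were also near 0, at 0.0168 and 0.405 FPKM. PISTILLATA started from 1066 FPKM there, so the sizes of these changes cannot be set side by side. From anthers to 40D, CS had 2 of them higher and 4 lower, and SG had 2 higher and 5 lower, beside 43% of all loci lower in CS and 39.9% in SG, so the count lower in CS is near the background. The 2 that rose in each cultivar were VIT_12s0142g00360 and VIT_18s0041g01880 of the AGAMOUS/SEEDSTICK class, the latter from 0.513 ± 0.0665 to 74.2 ± 1.32 FPKM in CS. In EC against 40D, 8 of 9 fell and 0 rose in each cultivar, beside 26.5% of all loci lower in CS and 29.7% in SG. After median-of-ratios scaling these shares of all loci were 36.7% and 36.9%. Some of the falls started near 0, as for VIT_17s0000g05000 and VIT_14s0083g01030 in CS, at the 40D levels above. In SG, VIT_01s0011g00100 fell from 0.214 FPKM.

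**Figure D5:**
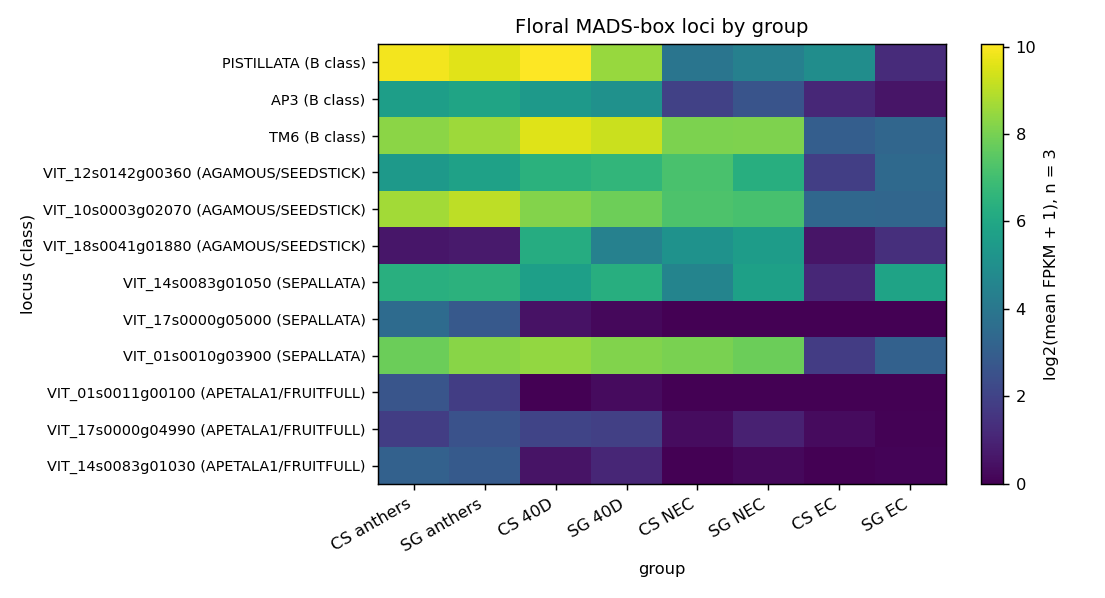
Mean levels of the 3 B-class genes and 9 other floral MADS-box loci in the 8 groups, as log2(FPKM + 1) of the group mean (n = 3). TM6, VIT_01s0010g03900, VIT_10s0003g02070 and VIT_12s0142g00360 are high in anthers, 40D and NEC and low in EC. PISTILLATA and AP3 are each much higher in anthers and 40D than in NEC and EC.

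The loci whose pattern was most like each member were found by the Pearson correlation of log2(FPKM + 1) over the 24 libraries, among 18034 tested loci with a group mean of 5 FPKM or more, the 3 members left out. Between members, r was 0.962 for PISTILLATA with AP3, 0.725 for PISTILLATA with TM6 and 0.814 for AP3 with TM6. The libraries fall into tissues and share groups, so these values describe the pattern and carry no test. Outside the B class, TM6 was closest to VIT_01s0010g03900, the SEPALLATA-class locus above (r = 0.985), followed by VIT_01s0146g00280 (0.984) and VIT_14s0171g00490 (0.972). The last 2 had means of 17.3 and 15.2 FPKM in SG EC and of 219 and 111 in SG NEC. The loci closest to AP3, members aside, were VIT_16s0098g01170 (0.965), VIT_08s0007g06470 (0.961) and VIT_06s0061g00240 (0.957). The first of these went from 156 FPKM in CS 40D to 8.70 in CS NEC and 1.39 in CS EC. Those closest to PISTILLATA were VIT_04s0023g03310 (0.945), VIT_17s0000g09370 (0.944) and VIT_08s0007g00140 (0.940), all below its r with AP3. VIT_04s0023g03310 had a mean of 10.2 FPKM for CS anthers and of 12.8 for CS 40D, was listed at 0 in CS NEC, and reached 0.638 in CS EC. The value of r does not measure the size of a change. VIT_08s0007g00140 went only from 60.0 FPKM in CS 40D to 43.8 in CS NEC and 45.9 in CS EC.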

How the data were processed

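The authors deposited FPKM values for 29971 loci with 1 column per library. The submitters' processing notes name CASAVA 1.8.2, Cufflinks 2.1.1 and TopHat2 2.0.9. No source used here gives the genome build, the annotation or any further scaling. FPKM carry no read numbers, and count models were not applied.

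A locus was kept if 3 libraries or more had it at 1 FPKM or above (21568 loci). limma 3.58.1 in R 4.3.3 was fitted to log2(FPKM + 1) over the 24 libraries with a mean for each group, a trend of the spread with expression and 16 residual degrees of freedom, for 18 comparisons. Benjamini-Hochberg adjustment ran over all loci within a comparison, with a threshold of 0.05. Ratios within a library were compared by exact two-sided permutation tests in scipy 1.17.1. The fit was also run on simulated data with independent noise and 1 spread per locus, and the outcome is not given here. That setting cannot speak for p-values where libraries are not independent or groups differ in spread. Named loci were the members, list loci with the smallest adjusted p of their class, and the 3 loci most like each member. Some list loci were named for other reasons after their values were seen. Alternatives were a pseudocount of 0.1 (for ratios, of 1), no filter, the replicate number as a block, median-of-ratios scaling, equal sums, a fit of the compared groups alone, each 40D group as 1 sample, and leaving out each library. Leaving out SG EC replicate 1 with SG NEC replicate 2, and the ratios of NEC against 40D, are later additions, chosen after seeing the data. The members, lists and tests were chosen with earlier results of these data known.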

Additional observations from a re-analysis of the deposited data

Results flagged for a closer look

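The EC to NEC difference of PISTILLATA differed between the cultivars, with an interaction of -3.98 on the log2 scale (limma adjusted p of 4.7e-06): the change was 0.81 in CS and -3.18 in SG. The EC to NEC difference of AP3 also differed, with an interaction of -1.25 (limma adjusted p of 0.0014), from changes of -0.86 in CS and -2.10 in SG. The 40D to anther difference of PISTILLATA had an interaction of -1.29 (limma adjusted p of 0.043), from 0.17 in CS and -1.12 in SG, and this one did not survive the loss of any single library.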

How the results depend on the processing

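The falls of PISTILLATA and AP3 from 40D to NEC and to EC, of TM6 from 40D and from NEC to EC, and of AP3 and SG PISTILLATA from NEC to EC kept their call under every alternative run. The following did not, with limma adjusted p in brackets. A pseudocount of 0.1 gave TM6 in CS 1.25 (0.11) for 40D against anthers and -1.50 (0.073) for NEC against 40D, PISTILLATA 0.84 (0.066) for EC against NEC in CS, AP3 -0.79 (0.19) for 40D against anthers in SG and 0.82 (0.22) for SG against CS in NEC, and the PISTILLATA interaction of 40D against anthers -1.29 (0.073). PISTILLATA in CS EC against NEC and that interaction were 0.81 (0.056) and -1.29 (0.051) with no filter, and 0.81 (0.056) and -1.29 (0.052) with the replicate block. Correlations of deviations between same-numbered libraries ran from -0.26 to 0.17, and in 0 of 28 pairs of groups were all above 0.1. With 3 libraries per group, these values cannot tell whether same-numbered libraries share a source. The block changed no other call of a member. With the compared groups alone, calls were gained for AP3 in 40D against anthers in CS at -0.22 (0.0034), in its interaction at -0.56 (0.0074) and for SG against CS in 40D at -0.35 (5.1e-05), and for TM6 in NEC against anthers at -0.24 (0.017) in CS and -0.44 (0.0031) in SG, in SG 40D against anthers at 0.69 (0.00026), in SG NEC against 40D at -1.13 (9.7e-06), for SG against CS in 40D at -0.32 (2.4e-05) and in its interaction of 40D against anthers at -0.56 (0.00045). They were lost for PISTILLATA in CS EC against NEC at 0.81 (0.22) and AP3 for SG against CS in EC at -0.58 (0.19). Median-of-ratios scaling gave 0.40 (0.30) for PISTILLATA in CS EC against NEC and turned TM6 for SG against CS in NEC to -0.073. Equal sums turned PISTILLATA in CS 40D against anthers to -0.12 and gave AP3 -0.50 (0.034) and TM6 0.96 (0.11) there. With each 40D group as 1 sample, calls were lost for TM6 in CS at 1.25 (0.21) against anthers and -1.49 (0.17) for NEC, and for PISTILLATA at -1.12 (0.10) in SG 40D against anthers, -1.56 (0.12) between cultivars and -1.29 (0.27) in the interaction. The lone sample is then assumed to vary like the other groups, and the loci called were 5505 for NEC against 40D in SG, 5842 for SG against CS in 40D and 5640 for the interaction of 40D against anthers, in place of 10235, 12278 and 10683. Leaving out 1 library gave PISTILLATA 0.37 to 1.43 in CS EC against NEC and -1.35 to -1.23 in the interaction of 40D against anthers, AP3 -0.85 to -0.33 for SG against CS in EC, and TM6 1.21 to 1.30 in CS 40D against anthers, -1.11 to 0.76 and -0.0081 to 0.075 for SG against CS in EC and NEC, and -1.15 to 0.72 in the interaction of EC against NEC. Without SG EC replicate 1 and SG NEC replicate 2 together, all 3 members kept their call in SG EC against NEC. The directions of all ratios held under the alternatives run. For SG EC, only the alternative with 1 FPKM added kept replicate 2, whose AP3 was listed at 0. The direction of the AP3 to PISTILLATA ratio in SG EC against NEC thus still depends on how that 0 is treated. Where a cause is not part of the alternative itself, the cause was not tested. The number of reads is unknown, so precision near 0 FPKM, as for AP3 in EC, cannot be given.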

Other observations

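The share of the B class in the floral MADS-box signal was described without a test. Of the summed FPKM of the 3 members and the 9 other floral loci, it supplied 62.8% ± 3.49 in CS anthers and 55.6% ± 8.45 in SG anthers, 68.6% ± 0.410 and 58.5% ± 0.141 in 40D, and 32.1% ± 1.99 and 36.0% ± 0.797 in NEC (SD, n = 3). In EC the share was 66.9% ± 8.87 in CS, out of a sum of 53.9 ± 26.8 FPKM, and its libraries spanned those of CS anthers and CS 40D. In SG EC it was 19.9%, 1.63% and 9.43% in replicates 1 to 3, out of 94.6 ± 18.0 FPKM, most of which came from the SEPALLATA-class locus VIT_14s0083g01050 at 55.3 ± 5.82 FPKM.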
